A study of Homo sapiens with 6 samples.

Results

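Glutathione, thioredoxin and the transcription factor NRF2 form the main thiol defence of a cell against peroxides and reactive electrophiles. The genes described here are 53 named enzymes, redox carriers and regulators of that defence, chosen by name: glutathione peroxidases, transferases, and enzymes of glutathione synthesis and breakdown, the thioredoxin and peroxiredoxin system, NRF2 with its inhibitor KEAP1, haem oxygenases, superoxide dismutases, and the radical-trapping genes AIFM2 and GCH1. The count table held 48 of the 53 among its 12396 genes, while GPX2, GPX7, GSTM3, GSTP1 and NQO1 were not analysed here.

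RNA-seq compared 3 control libraries of JHH-4, an epithelial-like human hepatocellular carcinoma line with the genotype label WT, with 3 libraries of JHH-4 labelled as overexpressing hsa-miR-372-3p. The microRNA was made from a plasmid that codes for its primary transcript. The sources used here do not say what the control cells carried, whether the plasmid was integrated, or how long it was expressed. All libraries come from 1 line and the series calls the replicates technical, so the p-values measure only the spread between these libraries. In bulk RNA, fewer cells that express a gene and less RNA per cell cannot be told apart.

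In the cell, glutamate-cysteine ligase and glutathione synthetase build glutathione, peroxidases and transferases spend it, and glutathione reductase restores it with NADPH. Thioredoxin, kept reduced by thioredoxin reductase, serves most peroxiredoxins in a parallel chain. Many of these genes carry antioxidant response elements, which NRF2 binds together with small MAF proteins once KEAP1 no longer sends it for degradation. In liver cells the same enzymes also handle drugs, bile pigments and products of lipid peroxidation.

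More of the 48 genes fell than rose. All 4 measured peroxidases and all 4 enzymes of glutathione synthesis and reduction were lower in overexpressing cells, by 1.08-fold to 1.62-fold. Among these, the calls of GPX1 and GCLC were lost under some other settings, given below. Haem oxygenase HMOX1 (1.70-fold), the microsomal transferase MGST1 (1.67-fold), the peroxiredoxin PRDX2 (1.61-fold) and the mitochondrial superoxide dismutase SOD2 (1.56-fold) fell too. The rises were led by the gamma-glutamyl transferase GGT5 (20.5-fold, from a trace level), with 5 soluble transferases and the thioredoxin reductases TXNRD1 and TXNRD2 also higher. In all, 24 members fell, 14 rose and 10 did not pass edgeR's quasi-likelihood test at an adjusted p of 0.05.

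Such calls were common in these data. Of all genes tested, 27.7% were lower and 26.8% higher, 54.5% together, against 79.2% of the members. Restricted to genes averaging 10 CPM (counts scaled to library size) or more, 10 of 39 members rose and 21 fell, against 28.4% and 28.8% of all such genes (79.5% and 57.2% in either direction). In that range 7 members (17.9%) and 10.2% of genes changed at least 1.5-fold. With a change of at least 1.5-fold also required, 8 members fell and 5 rose, against 8.46% and 7.11% of all genes. That count of 5 was 2 without control library 2, and 3 without overexpression library 2 or 3. The median log2 fold change of the members was −0.18, and that of all genes 0.0013.

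**Figure D1:**
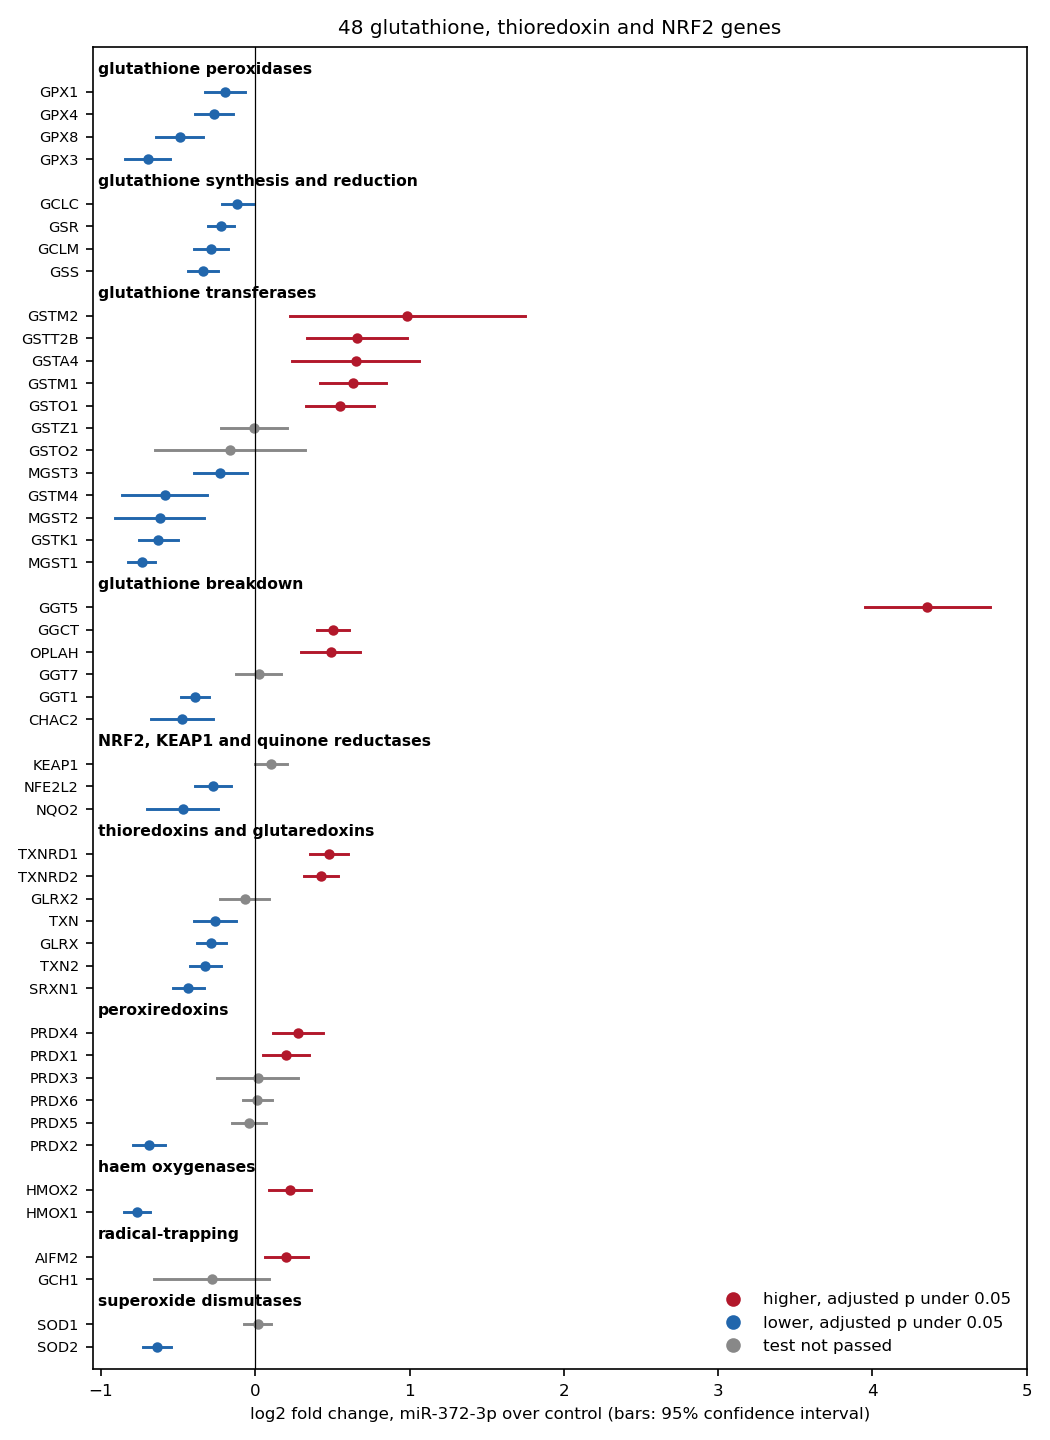
Log2 fold change of the 48 measured genes (overexpression over control, x axis), grouped by role, with 95% confidence intervals from the edgeR fit of 3 libraries a group. Both of the first groups lie wholly to the left of 0, transferases lie on both sides, and GGT5 stands alone at 4.36.

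Total counts ran from 48325676 to 61699567 per library. On the second principal component (8.08% of the variance) control library 3 lay at −16.70 and the other controls at 7.01 and 9.41. Of 15 hepatocyte markers, SERPINA1, FGA, FGB, FGG and ASGR1 were measured, with a summed level of 42.4 to 46.1 CPM in control and 64.7 to 64.8 CPM in overexpressing cells. Within that sum SERPINA1 fell (log2 −2.35 ± 0.169, from 8.98 to 1.77 CPM on average) and the other 4 rose. The remaining 10, ALB and HNF4A among them, were not analysed here. Of 5 epithelial markers, the keratins KRT8, KRT18 and KRT19 summed to 3382 to 3490 CPM in control and 6248 to 6495 CPM in overexpressing cells. EPCAM and CDH1 were not analysed here. Of 12 markers of blood, endothelium and stroma, 5 were measured, at 133 to 155 against 210 to 223 CPM in sum. COL1A1 (4.84 to 64.0 CPM on average) and PDGFRB (9.08 to 20.2 CPM) rose, while CD68 (130 and 129 CPM), CD14 and COL1A2 did not pass. The other 7, PTPRC, PECAM1, VWF, KDR, COL3A1, DCN and ACTA2, were not analysed here. The part of these shifts in the results below was not tested.

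The microRNA itself pairs with messenger RNAs mainly through bases 2 to 8. Its mature sequence (RefSeq, GRCh38.p14, chr19:53787931-53787953, plus strand) is shown with those bases in capitals.
hsa-miR-372-3p: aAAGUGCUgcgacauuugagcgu
Their DNA complement is AGCACTT, and with a following A it becomes the 8-base form AGCACTTA. In the longest annotated 3′ UTR of each gene (GENCODE 29, GRCh38), none of the 48 members held AGCACTTA, against 4.05% of the 12192 genes searched. AGCACTT was found in 8 members (16.7%) and in 25.5% of all genes searched. These 8 were GCLM, GLRX, GPX8, GSR, GSS, GSTM4, NQO2 and SOD2. All 8 fell, with a median log2 fold change of −0.41. Of the 40 members without it, 16 fell and 14 rose. Over all genes the contrast was small: 32.1% of genes with AGCACTT and 26.6% of genes without it fell. The median log2 fold changes of these 2 sets were −0.0277 and 0.00898. A match of 7 letters is a description of the annotated sequence, not a measured site, and its part in the falls was not tested.

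The matches of GSS, GLRX and GSTM4 are shown with 11 flanking bases on each side, 5′ to 3′ on the gene's strand and with the match in capitals, as examples of the letters around it.
GSS (chr20:34929058-34929064): tctaaaatcctAGCACTTtcttggtatag
GLRX (chr5:95814894-95814900): caaatgatgacAGCACTTctggtggatga
GSTM4 (chr1:109661042-109661048): tgtgatgcctcAGCACTTgagcccacgtg
The annotated 3′ UTRs of NQO2 (9214 nt) and SOD2 (13436 nt) are long. The matches of GSTM4 and GLRX lie well before the annotated ends of their genes. These genes span chr1:109656081-109674836 (plus strand) and chr5:95751319-95823005 (minus strand). Which 3′ ends these cells use was not tested.

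Glutathione peroxidases reduce peroxides at the cost of glutathione. GPX4, the member that reduces lipid hydroperoxides within membranes, read 181, 197 and 171 CPM in control libraries 1 to 3 and 153, 158 and 144 in overexpression libraries 1 to 3. All 3 control values lay above all 3 others (log2 −0.27 ± 0.056 SE, edgeR adjusted p = 0.00256). The secreted peroxidase GPX3 changed most in this family, from 39.0, 36.7 and 37.8 CPM to 25.3, 23.0 and 21.7 (log2 −0.70 ± 0.065, edgeR adjusted p = 1.54e-05). GPX1, the abundant cytosolic form, showed 188, 167 and 193 CPM in control and 161, 165 and 152 CPM in overexpressing cells. Its groups were close, and its call (log2 −0.20 ± 0.057, edgeR adjusted p = 0.0144) was lost without control library 1 (0.0526) or overexpression library 3 (0.0627). GPX8, which sits in the endoplasmic reticulum and carries AGCACTT in its 3′ UTR, fell by 0.49 on the log2 scale. By deposited FPKM, which are scaled to transcript length, GPX4 (204) and GPX1 (178) far exceeded GPX3 (20.5) and GPX8 in control cells.

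Glutathione synthesis and reduction fell together, each gene by less than 1.3-fold. GSS, which adds glycine in the last step, read 109, 113 and 110 CPM in control and 86.2, 92.0 and 84.1 CPM in overexpressing cells (log2 −0.34 ± 0.045, edgeR adjusted p = 0.000155). GCLM, the modifier subunit of the rate-limiting ligase, went from 82.6, 77.8 and 85.6 CPM to 69.1, 65.6 and 66.8 (log2 −0.29 ± 0.049, edgeR adjusted p = 0.000837). For both genes the groups did not overlap, which held for 62.2% of all genes and 39 of the 48 members. GSR, glutathione reductase, read 163, 167 and 157 CPM and then 139, 137 and 141 CPM (log2 −0.22 ± 0.037, edgeR adjusted p = 0.000729). GCLC, the catalytic subunit of the ligase, shifted least, from 41.6, 41.9 and 42.6 CPM to 38.1, 38.0 and 40.2 (log2 −0.12 ± 0.044). Its adjusted p of 0.048 in edgeR was 0.0788 to 0.155 without any 1 of control libraries 1, 2 and 3 and overexpression libraries 1 and 2, and 0.100 in DESeq2. In edgeR it was also 0.0608 with a replicate block, 0.0677 with all rows and 0.0509 with a minimum mean of 1 CPM. The call of GCLC was thus lost in 9 of 14 alternatives.

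The transferases, which couple glutathione to electrophiles, moved in both directions. Of 12 measured, 5 fell, 5 rose and 2 (GSTO2 and GSTZ1) did not pass. All 3 microsomal forms and the kappa form fell. MGST1, a membrane transferase that also reduces lipid peroxides, was the most abundant, at 347, 362 and 331 CPM in control and 208, 209 and 207 CPM in overexpressing cells (log2 −0.74 ± 0.040, edgeR adjusted p = 4.26e-07). GSTK1, found in mitochondria and peroxisomes, went from 87.3, 93.3 and 89.0 CPM to 55.6, 62.5 and 56.5 (log2 −0.63 ± 0.056, edgeR adjusted p = 1.12e-05). MGST2 read 11.4, 12.1 and 8.84 CPM and then 6.74, 7.62 and 6.69 CPM (log2 −0.62 ± 0.130). None of these 3 overlapped between the groups. MGST3 fell by 0.23 on the log2 scale (edgeR adjusted p = 0.0289), a call lost without control library 1 or 2 or any 1 overexpression library (0.0501 to 0.0925).

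The transferases that rose were cytosolic and, except for GSTO1, reached at most 14.8 CPM in any library. GSTO1, an omega-class transferase that reduces dehydroascorbate, read 96.8, 87.3 and 120 CPM in control and 143, 147 and 155 CPM in overexpressing cells (log2 0.55 ± 0.097, edgeR adjusted p = 0.000991). Control library 3 held its highest control value, still below all 3 overexpression libraries. GSTT2B, a theta-class form, went from 5.01, 3.52 and 4.53 CPM to 6.87, 6.73 and 7.0 (log2 0.66 ± 0.145, edgeR adjusted p = 0.00363). It has a near-identical copy in GSTT2, so the division of reads between them is uncertain. GSTA4, which conjugates the lipid peroxidation product 4-hydroxynonenal, went from 1.92, 1.70 and 2.10 CPM to 2.57, 3.03 and 3.39 (log2 0.65 ± 0.184, edgeR adjusted p = 0.0131, and 0.0538 without overexpression library 3).

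The mu-class genes lie side by side on chromosome 1 and did not move together. GSTM1 rose from 9.20, 8.46 and 8.26 CPM to 13.0, 14.8 and 12.4 (log2 0.63 ± 0.096, edgeR adjusted p = 0.000387), while GSTM4 fell from 10.3, 8.71 and 7.91 CPM to 6.34, 5.70 and 5.91 (log2 −0.59 ± 0.123, edgeR adjusted p = 0.0027). GSTM2 had only 14, 29 and 45 counts in control libraries 1 to 3, and 75, 61 and 68 with overexpression. Its call (log2 0.98 ± 0.340, edgeR adjusted p = 0.0327) was lost without control library 1 or 2 or any 1 overexpression library (0.0586 to 0.0783). In GENCODE 29 the span of GSTM2 overlaps those of GSTM1 and GSTM4 on the same strand, and these paralogs share sequence, so their counts are uncertain. Summed over the 12 transferases, the deposited FPKM were 597, 608 and 604 in control and 480, 484 and 486 in overexpressing cells, of which MGST1 made up 340 ± 13.0 and 207 ± 1.99 (SD, n = 3).

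**Figure D2:**
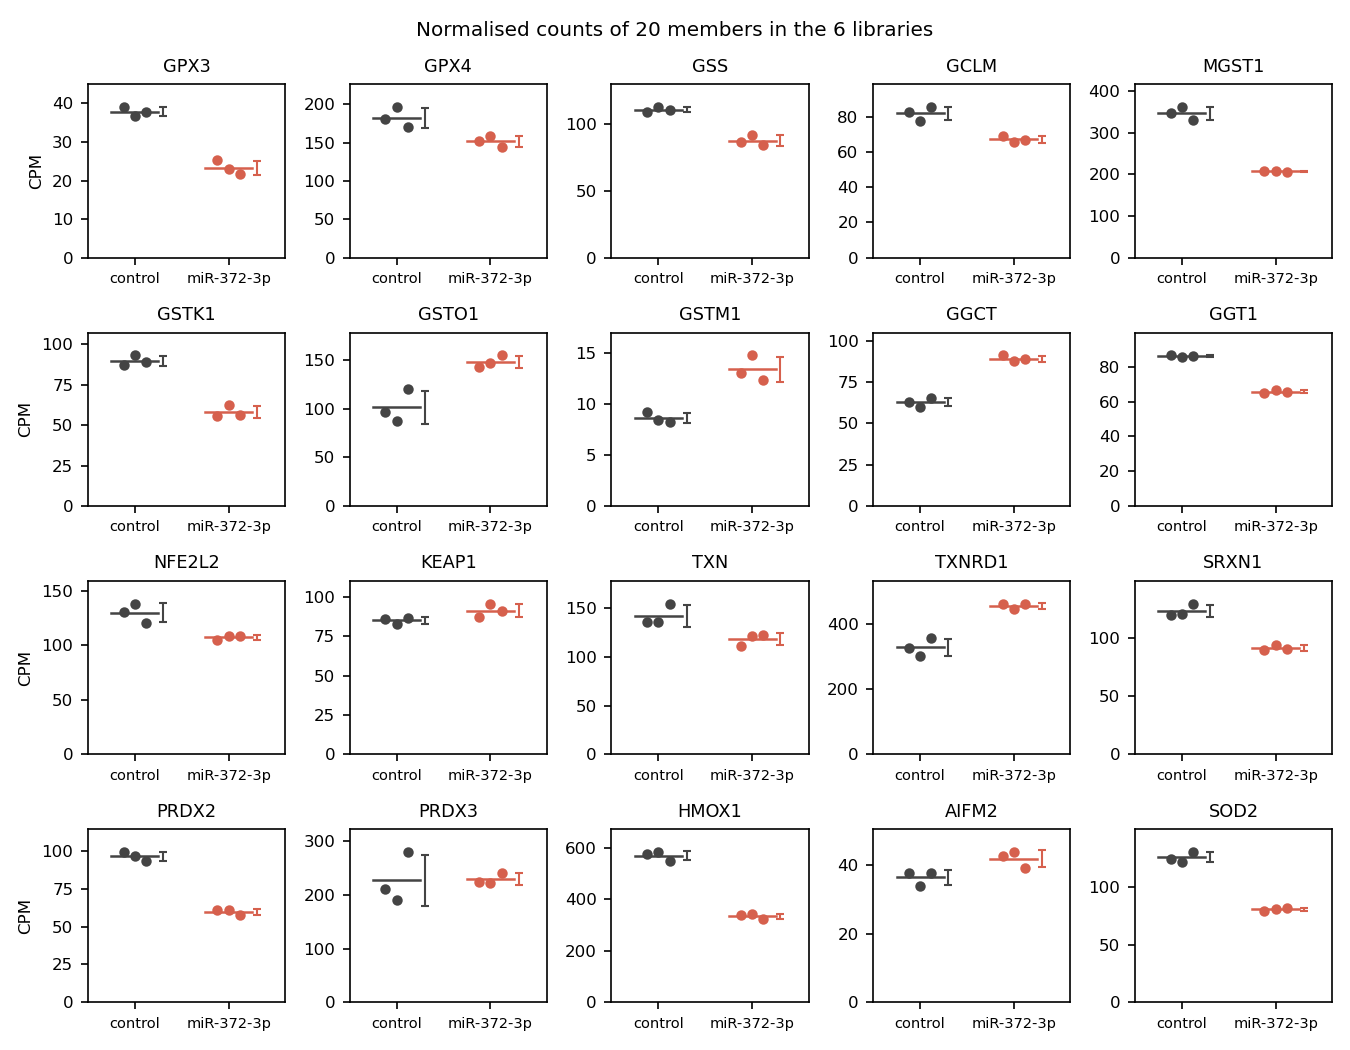
Normalised counts (CPM, y axis from 0) of 20 members in each of the 3 control and 3 overexpression libraries, with horizontal lines at the means and error bars of 1 SD. Points of the groups are separate in every panel except PRDX3, where control library 3 reads 280 CPM against 189 and 211 CPM in the other controls.

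Glutathione breakdown held both the largest rise and several small changes. GGT5 (GRCh38 chr22:24219654-24245142, minus strand) codes for a cell-surface enzyme that cleaves glutathione conjugates such as leukotriene C4. It had 32, 20 and 23 counts in control libraries 1 to 3, and 701, 505 and 609 with overexpression. In CPM this was 0.682, 0.429 and 0.474 against 11.7, 9.99 and 10.9, with log2 fold changes of 4.23 to 4.58 when any 1 library was left out. Even so its deposited FPKM stayed modest, at 4.35 ± 0.447 (SD, n = 3), below the 24.9 ± 0.538 of GGT1 in the same cells. GGT1, the main surface gamma-glutamyl transferase, fell (log2 −0.39 ± 0.040, edgeR adjusted p = 2.95e-05), although its reads can be shared with related copies on chromosome 22. GGT7 did not pass the test. Of the intracellular enzymes, GGCT, which releases 5-oxoproline from gamma-glutamyl peptides, rose (log2 0.50 ± 0.047), as did the 5-oxoprolinase OPLAH (0.49 ± 0.086). CHAC2, which degrades glutathione in the cytosol, fell (−0.48 ± 0.090).

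NFE2L2 (chr2:177227595-177392697, minus strand), the gene of NRF2, read 131, 138 and 121 CPM in control and 105, 109 and 109 CPM in overexpressing cells (log2 −0.28 ± 0.051, edgeR adjusted p = 0.00135). Its inhibitor KEAP1 read 86.2, 82.7 and 86.5 CPM and then 87.0, 95.8 and 91.3 CPM. The groups of KEAP1 just missed overlapping, and the difference (log2 0.10 ± 0.048, 95% confidence interval −0.0048 to 0.21) did not pass (edgeR adjusted p = 0.0963). RNA levels of these genes do not measure NRF2 protein, which is mainly set by its degradation. NQO2, a quinone reductase that uses dihydronicotinamide riboside, fell by 0.47 on the log2 scale. The longest annotated 3′ UTR of NFE2L2 (901 nt) held no form of the miR-372-3p match.

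Within the thioredoxin system the reductases rose and the carriers fell. TXNRD1 (chr12:104215779-104350305, plus strand), the cytosolic thioredoxin reductase, read 324, 302 and 356 CPM in control and 460, 444 and 461 CPM in overexpressing cells (log2 0.48 ± 0.055, edgeR adjusted p = 6.57e-05). TXNRD2, its mitochondrial counterpart, rose by a like amount (0.43 ± 0.049). TXN, cytosolic thioredoxin, went the other way, from 135, 136 and 155 CPM to 112, 122 and 122 (log2 −0.26 ± 0.060, edgeR adjusted p = 0.0046). The mitochondrial thioredoxin TXN2 (−0.33 ± 0.045) and the glutaredoxin GLRX (−0.28 ± 0.042) also fell. SRXN1, which repairs over-oxidised peroxiredoxins, went from 120, 121 and 129 CPM to 89.2, 93.8 and 90.4 (log2 −0.43 ± 0.045, edgeR adjusted p = 3.06e-05). GLRX2 did not pass.

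Peroxiredoxins, peroxidases most of which draw on thioredoxin, had the highest summed FPKM of the groups (896 ± 95.5 in control, 936 ± 14.0 in overexpressing cells, SD, n = 3). Of 6, 2 rose, 1 fell and 3 did not pass. PRDX1 read 463, 428 and 532 CPM in control and 534, 541 and 557 CPM in overexpressing cells. Its highest control, library 3, nearly reached the lowest overexpression value. The rise (log2 0.20 ± 0.068, edgeR adjusted p = 0.0312) was lost without control library 1 or 2 or any 1 overexpression library (0.0607 to 0.0986), and with no scaling factors (0.0528). PRDX4, of the endoplasmic reticulum, rose by 0.28 ± 0.073. PRDX2 (chr19:12796820-12801859, minus strand) fell from 99.2, 96.4 and 92.9 CPM to 60.9, 60.9 and 57.3 (log2 −0.69 ± 0.047, edgeR adjusted p = 1.93e-06). PRDX3, PRDX5 and PRDX6 did not pass, and their 95% confidence intervals on the log2 scale were −0.25 to 0.28, −0.15 to 0.07 and −0.079 to 0.11. For mitochondrial PRDX3 this depended on control library 3: without it the log2 fold change was 0.19 (edgeR adjusted p = 0.00779).

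HMOX1 (chr22:35380361-35394214, plus strand), the inducible haem oxygenase and a widely used NRF2 and BACH1 target, read 575, 585 and 550 CPM in control and 339, 342 and 323 CPM in overexpressing cells. This fall (log2 −0.77 ± 0.039, edgeR adjusted p = 2.8e-07) was the largest among the 48 members, and the groups lay far apart. The constitutive form HMOX2 rose slightly (0.22 ± 0.060). SOD2 (chr6:159669057-159745186, minus strand) showed 124, 122 and 130 CPM and then 79.2, 80.6 and 81.7 CPM (log2 −0.64 ± 0.041, edgeR adjusted p = 1.27e-06), with no overlap between groups. Cytosolic SOD1 read 132, 128 and 133 CPM against 132, 137 and 129 CPM. It did not pass, with a 95% confidence interval of −0.07 to 0.10 on the log2 scale.

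AIFM2 and GCH1 act against lipid radicals by routes that need no glutathione. AIFM2, also called FSP1, which reduces ubiquinone at the plasma membrane, read 37.7, 33.8 and 37.6 CPM in control and 42.7, 43.8 and 39.0 CPM in overexpressing cells. It rose slightly (log2 0.20 ± 0.062, edgeR adjusted p = 0.0204), and the call was lost without overexpression library 1 (0.0714) or 2 (0.0827). GCH1, the first enzyme of tetrahydrobiopterin synthesis, read 4.90, 4.55 and 6.22 CPM against 3.84, 4.10 and 4.96 CPM. Its groups overlapped and it did not pass (log2 −0.28 ± 0.166, edgeR adjusted p = 0.178).

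**Figure D3:**
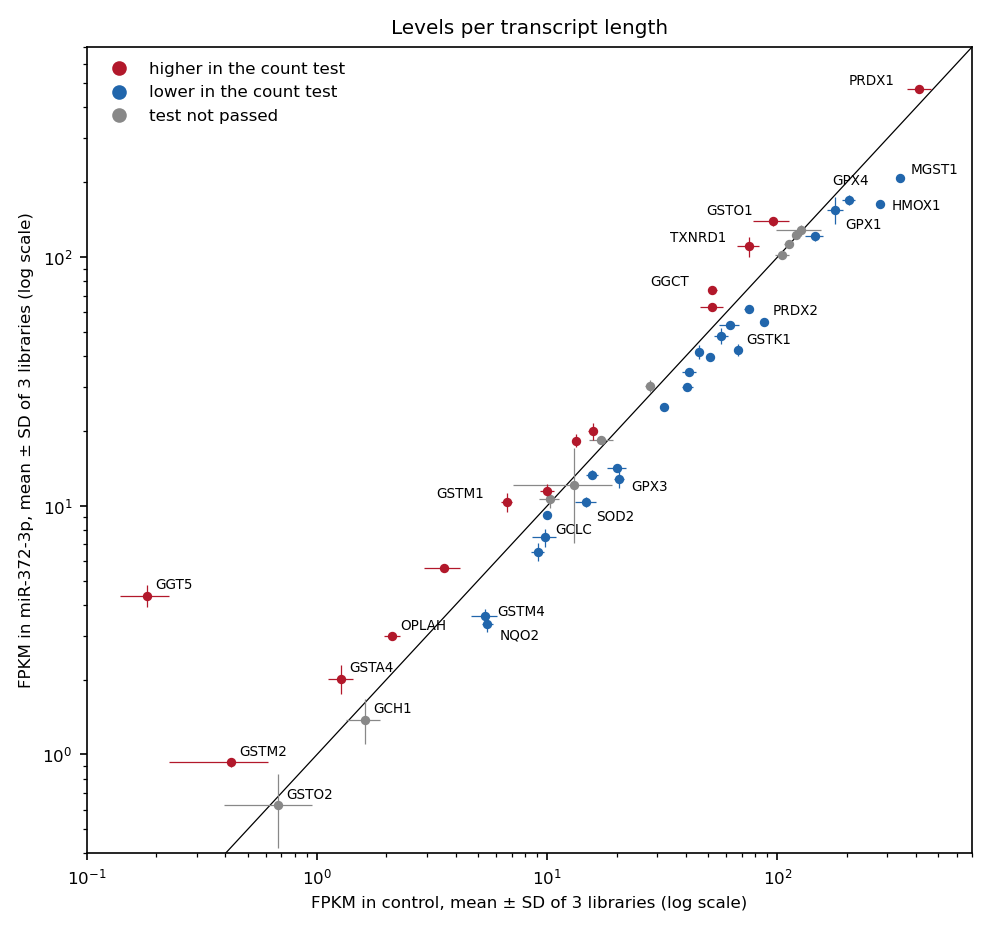
Deposited FPKM of the 48 members in control (x axis) and overexpressing cells (y axis), both on log scales, as mean ± SD of 3 libraries, with the line of equality. PRDX1 (414 in control), MGST1 (340) and HMOX1 (278) are the most abundant, and GGT5 lies farthest above the line.

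Promoter windows were searched for TGACNNNGC, the core of the antioxidant response element, on both strands. The RefSeq table (GRCh38.p14, 250 bases before to 50 after each start) held windows for 35 of the 48 members. It had none for GCH1, GGCT, GGT5, GSR, GSS, GSTT2B, HMOX1, MGST2, OPLAH, PRDX1, PRDX6, SOD1 and TXN2. The core was present in 10 of 54 member windows (18.5%) and in 14.3% of 14798 windows of all genes tested. Of the 9 members that held it, AIFM2, GSTA4, GSTM1, GSTO1 and TXNRD1 rose, GCLM, GGT1 and MGST1 fell, and KEAP1 did not pass. Of the 26 members whose windows lacked it, 4 rose and 16 fell. Sequence outside the windows was not searched, so these 26 may hold the core elsewhere. Over all genes tested, 27.0% with the core rose and 28.8% fell, against 26.3% and 27.9% without it. Whether the core bears on these directions was not tested. The windows of GCLM and AIFM2 are shown because they carry the core close to the start in genes that changed in opposite directions, and the upstream window of TXNRD1 as 1 of 3 that hold the core 2 times, with those of GSTO1 and KEAP1. Capitals mark the core.
GCLM (chr1:93909381-93909680, minus strand): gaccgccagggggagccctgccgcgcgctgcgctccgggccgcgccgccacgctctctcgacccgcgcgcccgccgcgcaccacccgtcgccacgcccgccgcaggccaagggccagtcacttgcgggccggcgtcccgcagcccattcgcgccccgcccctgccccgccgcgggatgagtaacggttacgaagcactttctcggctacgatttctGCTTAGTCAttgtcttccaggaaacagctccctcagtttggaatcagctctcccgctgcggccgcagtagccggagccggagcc
AIFM2 (chr10:70132776-70133075, minus strand): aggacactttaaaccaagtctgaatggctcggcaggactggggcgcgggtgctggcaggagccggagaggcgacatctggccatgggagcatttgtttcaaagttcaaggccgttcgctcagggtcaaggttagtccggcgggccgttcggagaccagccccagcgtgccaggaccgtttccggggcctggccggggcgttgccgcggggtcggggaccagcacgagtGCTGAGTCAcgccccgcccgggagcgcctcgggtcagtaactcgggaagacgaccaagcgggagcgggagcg
TXNRD1 (chr12:104215529-104215828, plus strand): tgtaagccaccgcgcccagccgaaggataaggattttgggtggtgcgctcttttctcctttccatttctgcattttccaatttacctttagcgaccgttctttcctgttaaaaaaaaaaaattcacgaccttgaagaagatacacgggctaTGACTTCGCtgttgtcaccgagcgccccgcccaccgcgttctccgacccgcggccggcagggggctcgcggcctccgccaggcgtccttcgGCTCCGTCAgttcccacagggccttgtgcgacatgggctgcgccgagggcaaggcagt
In GCLM the 9 bases lie 34 bases before the start and in AIFM2 22 bases before it, in both on the opposite strand.

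Regulators of NRF2 outside the 48 genes moved up more often than down. Of 21 measured, 12 rose, 2 fell and 7 did not pass, with a median log2 fold change of 0.16. That was 66.7% called, against 54.5% of all genes. The list mixes partners of NRF2 with genes that act against it, so its count and median give no direction of NRF2 activity. The small MAF partners MAFK (0.74 ± 0.057, from 62.4 to 104 CPM on average) and MAFG (0.73 ± 0.044, from 86.7 to 144 CPM) and the related factor NFE2L3 (0.69 ± 0.043) rose most. BACH1, which represses HMOX1 and binds the same elements with small MAF proteins, rose as well (0.56 ± 0.075), from 23.0, 21.5 and 26.2 CPM to 33.5, 34.8 and 36.0. The 2 that fell were the ubiquitin ligase TRIM21 (−0.64 ± 0.100) and, slightly, SQSTM1 (−0.25 ± 0.032), an adaptor that withdraws KEAP1. CUL3, the ubiquitin ligase scaffold bound by KEAP1, did not pass (0.08 ± 0.040).

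Other genes listed as NRF2 targets were mostly lower. Of 38 measured, 25 fell, 2 rose and 11 did not pass, with a median of −0.34. That was 71.1% called, against 54.5% of all genes. AKR1B10, an aldo-keto reductase, fell most (−1.63 ± 0.060), from 62.4, 56.4 and 63.0 CPM to 18.9, 19.3 and 20.7. AKR1C3 fell from 77.7 to 40.2 CPM on average (−0.95 ± 0.063), and the secreted phosphoprotein SPP1, which has many other regulators, from 2042 to 963 CPM (−1.08 ± 0.044). The 2 that rose were MAFG and AKR1B1 (0.87 ± 0.204). MAFG and SQSTM1 are in both lists, and SLC7A11 is in this one and the next. Several listed genes have further roles in lipid, sugar or iron metabolism, such as the pentose phosphate enzyme TKT (−0.50 ± 0.034) and ferritin light chain FTL (−0.58 ± 0.050).

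Among 19 measured genes of cysteine and glutamate supply, 5 rose and 6 fell, with a median of 0.02 (3 rose without control library 1 or overexpression library 2). The share called, 57.9%, was near the 54.5% of all genes. MAT1A, the liver form of methionine adenosyltransferase, fell most (−1.37 ± 0.055), from 47.0 to 18.3 CPM on average. The glutamate and cysteine transporter SLC1A1 (−0.93 ± 0.070) and the regulatory subunit MAT2B (−0.87 ± 0.111) also fell. Of the 2 chains of the cystine importer, the heavy chain SLC3A2 rose (0.44 ± 0.066), whereas the light chain SLC7A11 read 24.3, 21.8 and 28.2 CPM against 22.3, 24.2 and 25.1 CPM and did not pass (edgeR adjusted p = 0.636).

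GPX1, GPX3, GPX4, TXNRD1 and TXNRD2 contain selenocysteine, so the machinery that inserts it was counted as well. Of 14 genes of selenoprotein synthesis, 3 rose, 3 fell and 8 did not pass, with a median of 0.01. Calls came to 42.9% of this list and 41.7% of the other selenoproteins below, both under the 54.5% of all genes tested. The selenocysteine lyase SCLY fell (−0.44 ± 0.053), while SECISBP2L (0.43 ± 0.057) and the kinase PSTK (0.44 ± 0.154) rose. However, PSTK did not pass without control library 1 or 3 or overexpression library 1 or 3 (edgeR adjusted p = 0.0733 to 0.128). Nor did it pass with a replicate block (edgeR adjusted p = 0.0616). The count that rose was 1 without control library 1 or overexpression library 3. Among 12 other selenoproteins 4 rose and MSRB1 (−0.43) fell, led by SELENOW (0.76 ± 0.075), TXNRD3 (0.66 ± 0.222) and SELENON (0.51 ± 0.059). The TXNRD3 call was lost without control library 1 or 2 or overexpression library 1 or 2 (edgeR adjusted p = 0.0529 to 0.0996). Selenoproteins thus included both genes that fell (GPX1, GPX3, GPX4, MSRB1) and genes that rose (TXNRD1, TXNRD2, SELENOW, SELENON).

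**Figure D4:**
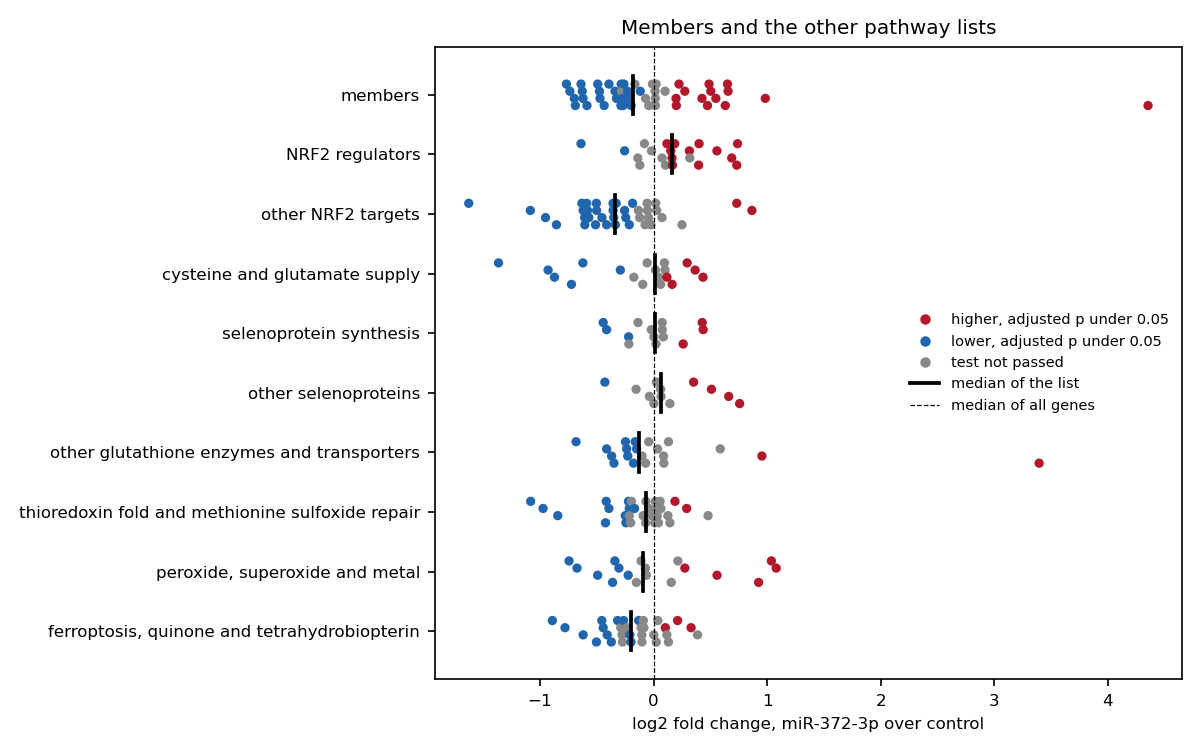
Log2 fold change (x axis) of the 48 members and of the genes of 9 other lists, with a thick line at each list's median and a dashed line at the median of all genes. NRF2 regulators centre on 0.16 and other NRF2 targets on −0.34.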

How the data were processed

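Counts for 3 control and 3 overexpression libraries came from 1 deposited table. Groups and replicate numbers follow the sample titles. Members and lists were chosen with earlier results of these data known. The submitters' processing notes name the GRCh38 build and the tools StringTie 2.2.1, DESeq2 1.38.3 and HISAT2 2.0.4, with no role or order. The sources used here do not state the annotation or how reads were counted. Per the labels' protocols, the library kit was NEBNext Ultra RNA. That kit leaves strand unmarked, so members that overlap a coding gene on the opposite strand may share reads with it. Overlaps on the same strand may share reads whatever the kit. These involve GGCT, GGT1, GSTM1, GSTM2, GSTM4, PRDX2, SRXN1 and TXNRD1. In all, 22 members overlap another coding gene.

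Per the file headers, the authors deposited read counts, FPKM, a p-value and a log2 fold change. The counts are whole numbers; the deposited FPKM, scaled by the authors to length and depth, served only to set levels of different genes side by side, and the authors' p-value and log2 fold change were not used. Of 14006 rows, the 12396 with an Ensembl ID were tested. The other 1610, unnamed loci, held 2.64 to 3.63% of counts and were left out. No row had under 208 counts in all, so nothing is said here of genes below that. The number of per-sample columns with no matching sample was 0.

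edgeR 4.0.16 (R 4.3.3; TMM, quasi-likelihood F-test, filterByExpr, which removed 0 genes) fitted all genes with 2 groups, and p-values were Benjamini-Hochberg adjusted over all of them. SE is the absolute log2 fold change over the square root of F. CPM use TMM-scaled library sizes. The fit was tested on simulated data. No libraries were merged, since the chi-square of replicate pairs, divided by its degrees of freedom, was 6.86 to 38.6. Values in each library are given for members past the test with at least 1.5-fold change and for 18 members chosen by name, 17 of them measured. Those of GSTO1 and BACH1 were added after their values were seen. The 3 genes with the largest change that passed were named from each other list, and other genes named there were chosen after their values were seen. Alternatives were DESeq2 1.42.0, other scalings, filters, all rows, a replicate block and leaving out each library. Some sequence matches and 1 gene are not reported here.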

Additional observations from a re-analysis of the deposited data

How the results depend on the processing

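Over 14 alternatives, 21 to 24 members fell and 11 to 15 rose. Of the 38 called, 31 kept direction and call under every one of them; the others were GPX1, GCLC, GSTA4, GSTM2, MGST3, PRDX1 and AIFM2. GSTM2 was not tested with a minimum mean of 1 CPM. PRDX3 passed only without control library 3, and its log2 fold change lay between −0.09 and 0.19. With any 1 library left out, 11 to 15 members rose and 21 to 23 fell, and 2 to 6 rose and 6 to 8 fell by at least 1.5-fold. With the replicate number as a block, 14 rose and 23 fell (5 and 7 by at least 1.5-fold). The titles' numbers showed no sign of pairing: deviations of same-numbered libraries correlated at −0.126, 0.00486 and 0.0914. Those of differently numbered libraries ranged from −0.149 to 0.168. With 3 libraries a group this cannot exclude a paired design. DESeq2 gave 14 and 23. The median over all genes stayed between −0.0068 and 0.0081 under all 14. Depth limits GSTM2, GSTA4, GSTO2 and GGT5, which read 0.298 to 2.10 CPM in the controls.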

Other observations

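Further lists of the same defence held called genes at shares on both sides of the 54.5% of all genes tested. Of 20 other glutathione enzymes and transporters, 10 fell and 2 rose (60% called), with a median log2 fold change of −0.12. The carriers SLC25A10 (−0.68 ± 0.049), SLC25A40 (−0.37 ± 0.073) and SLC25A39 (−0.25 ± 0.034), the last of which brings glutathione into mitochondria, all fell. CHAC1, a glutathione-degrading enzyme of the integrated stress response, rose (0.95 ± 0.099) while its paralog CHAC2 fell (−0.48 ± 0.090). The other rise was ALOX5AP, with 0, 20 and 0 counts in control libraries 1 to 3 and 99, 65 and 89 with overexpression, and DESeq2 did not call it (adjusted p = 0.15). The count that rose was 4 without control library 3, and 1 with a minimum mean of 1 CPM.

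Of 31 thioredoxin-fold and methionine sulfoxide repair genes, 11 fell and 2 rose (1 without control library 1, 4 without control library 3), with a median of −0.07. That was 41.9% called, below the 54.5% of all genes. SESN3 (−1.08 ± 0.187), TXNIP (−0.97 ± 0.142), which binds thioredoxin, and the endoplasmic reticulum oxidase ERO1B (−0.84 ± 0.143) fell most. Of 18 genes of peroxide, superoxide and metal handling, 7 fell and 5 rose (66.7% called, median −0.09). UCP2 (1.08 ± 0.148), the oxidase NOX4 (1.04 ± 0.251) and metallothionein MT1F (0.93 ± 0.149) rose from control means under 3 CPM, whereas catalase CAT (−0.36 ± 0.048) and extracellular SOD3 (−0.74 ± 0.055) fell. Of 31 genes of ferroptosis, ubiquinone and tetrahydrobiopterin, 13 fell and 3 rose (51.6% called, median −0.20). Besides ACSL4 (−0.89 ± 0.052) and LPCAT3 (−0.78 ± 0.090), COQ2, an early enzyme of ubiquinone synthesis, fell (−0.62 ± 0.087). PTS (−0.32 ± 0.106) and SPR (−0.26 ± 0.053), which follow GCH1 in tetrahydrobiopterin synthesis, fell as well.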
